A study of Mus musculus with 19 samples.

Results

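Of the 2943 SOX9 peaks called in mouse glial progenitor cells (GPC), 239 (8.12%) lay within 1000 bp of the transcription start site (TSS) of the gene to which the authors assigned them. They were chosen by that distance alone, whatever other factor overlapped them, and they fell at 220 genes on all 19 autosomes. Of these genes 19 had 2 such peaks and 25 also had a SOX9 peak farther away, and merging overlapping peaks left 220 regions. Each peak in the list was 601 bp wide, so the TSS itself lay inside the peak for 152 of the 239 (63.6%). Just inside the limit were peaks at Ascl2 (988 bp), Fam78b (997 bp) and Stxbp5 (-997 bp, negative values being upstream of the TSS). Just outside were peaks at Eapp (-1018 bp), 4930402H24Rik (-1038 bp) and Prl7c1 (1042 bp).

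SOX9 is a transcription factor with an HMG domain that binds short sequences with an ACAAAG or ACAATG core, and it drives the formation of glia in the neural tube. NFIA, a nuclear factor I protein induced during the switch from making neurons to making glia, binds TTGGC on either strand, and SOX3 is an HMG factor of neural progenitors. Many promoters of dividing cells carry CCAAT boxes, the binding sequence of the trimeric factor NF-Y. The replication-dependent histone genes stand in clusters, have no introns and are transcribed mainly while DNA is copied.

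The study derived GPC from embryonic stem cells (ESC) with 0.1 µM retinoic acid, sorted them at day 8 by the surface antigen A2B5 and grew them with EGF and FGF2 at 10 ng/ml each. No genotype, strain or genetic change is given in the labels for any group. SOX9 binding came from 3 ChIP-seq samples of these cells, SOX3 from 2 and NFIA from 2, each factor with 1 list over its samples, so that no spread between ChIP replicates can be given. RNA was sequenced from 4 GPC libraries and from 3 libraries of ESC-derived glial cells, called glia here, whose labels repeat the GPC protocol and do not describe how glia were made.

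Read counts in genes ran from 12836998 to 22439837 in GPC and from 6897294 to 17369367 in glia. The labels do not say whether the libraries are separate cultures, and the spread behind each p-value may therefore be technical. GPC replicate 3 stood apart from the other GPC libraries, at 25.4 to 29.3 for the chi-square per gene in its pairs and 2.01 to 3.47 in pairs without it. The summed level of 10 astrocyte markers was 1199.6 to 1837 RPKM in GPC and 10629.8 to 13825 RPKM in glia, that of 8 maturing oligodendrocyte markers 100.4 to 124.7 and 1682 to 2394 RPKM, and that of 7 oligodendrocyte precursor markers 1724 to 1919 and 1050.4 to 1368 RPKM (RPKM, reads scaled by gene length and library reads). Summed levels were 32.9 to 38.2 RPKM in GPC and 103.9 to 117.8 RPKM in glia for 7 measured neuron markers, 1.49 to 2.24 and 7.83 to 8.83 for 6 microglia markers, and 1.99 to 3.25 and 1.83 to 3.10 for 5 endothelium markers. They were 133 to 152 and 611 to 736 RPKM for 6 mesenchyme markers, and 1.51 to 2.36 and 0.296 to 1.15 RPKM for 5 pluripotency markers. At 0 in every library were 1 microglia marker and 3 pluripotency markers. Sums can hide members that moved apart. In glia 8 astrocyte markers rose and 2 fell, 3 precursor markers rose and 4 fell, and all 8 maturing oligodendrocyte and 6 mesenchyme markers rose (edgeR adjusted p below 0.05). Of the others, 1 microglia marker rose, 1 endothelium marker rose and 1 fell, and 1 pluripotency marker fell. Over all 13588 genes tested 35.2% rose and 35.2% fell.

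The promoters below are shown for the sequences they hold just before the TSS, and were taken from genes whose values are given further on. The mm9 sequence under the peaks themselves was not read. Each is the RefSeq sequence (GRCm38.p6) of the 250 bases before the TSS, written 5′ to 3′ on the strand of the gene. Capitals mark CCAAT on either strand (read as ATTGG on the other strand), the SOX cores ACAAAG and ACAATG on either strand, and the TATA sequence TATAAA on either strand. The first set has genes with CCAAT matches close to a SOX9 peak centre: Ube2c (chr2:164769679-164769928, plus strand), Spc25 (chr2:69206214-69206463, minus strand), Hk2 (chr6:82774455-82774704, minus strand) and Ppp6r3 (chr19:3575750-3575999, minus strand).
Ube2c: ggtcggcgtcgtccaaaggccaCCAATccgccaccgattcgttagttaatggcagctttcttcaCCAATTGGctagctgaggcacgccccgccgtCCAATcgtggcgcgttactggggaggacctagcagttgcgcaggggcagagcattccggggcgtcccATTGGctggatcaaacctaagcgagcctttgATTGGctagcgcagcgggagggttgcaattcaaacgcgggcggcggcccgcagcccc
Spc25: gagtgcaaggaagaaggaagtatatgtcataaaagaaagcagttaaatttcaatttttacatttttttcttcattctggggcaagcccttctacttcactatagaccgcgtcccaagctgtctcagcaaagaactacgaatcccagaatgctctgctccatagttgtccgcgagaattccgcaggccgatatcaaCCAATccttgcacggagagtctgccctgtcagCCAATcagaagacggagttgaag
Hk2: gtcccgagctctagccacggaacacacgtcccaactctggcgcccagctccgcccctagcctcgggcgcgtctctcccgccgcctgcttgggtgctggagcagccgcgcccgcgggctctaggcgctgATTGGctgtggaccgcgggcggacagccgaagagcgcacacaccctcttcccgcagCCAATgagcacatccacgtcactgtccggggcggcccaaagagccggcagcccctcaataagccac
Ppp6r3: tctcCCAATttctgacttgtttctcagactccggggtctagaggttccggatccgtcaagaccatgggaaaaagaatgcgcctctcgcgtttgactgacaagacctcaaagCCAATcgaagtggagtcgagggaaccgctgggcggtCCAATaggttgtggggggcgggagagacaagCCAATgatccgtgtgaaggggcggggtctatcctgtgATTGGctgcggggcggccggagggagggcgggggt
Ube2c held 6 CCAAT matches, Ppp6r3 5, and Spc25 and Hk2 2 each, with no SOX core among these bases in any of the 4. The SOX9 peak centre nearest to the TSS lay 10 bp from the centre of a CCAAT match at Ube2c, 8 bp at Spc25, 9 bp at Hk2 and 10 bp at Ppp6r3.

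The other set has histone promoters and genes without CCAAT matches: Hist1h1c (chr13:23738557-23738806, plus strand), Hist1h4i (chr13:22041363-22041612, minus strand), Casc5 (chr2:119046869-119047118, plus strand) and Fxyd1 (chr7:31054854-31055103, minus strand).
Hist1h1c: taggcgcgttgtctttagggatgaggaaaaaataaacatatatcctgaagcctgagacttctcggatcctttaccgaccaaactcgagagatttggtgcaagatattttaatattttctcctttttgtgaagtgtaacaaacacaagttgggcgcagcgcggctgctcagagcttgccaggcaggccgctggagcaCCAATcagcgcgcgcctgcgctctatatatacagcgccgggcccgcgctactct
Hist1h4i: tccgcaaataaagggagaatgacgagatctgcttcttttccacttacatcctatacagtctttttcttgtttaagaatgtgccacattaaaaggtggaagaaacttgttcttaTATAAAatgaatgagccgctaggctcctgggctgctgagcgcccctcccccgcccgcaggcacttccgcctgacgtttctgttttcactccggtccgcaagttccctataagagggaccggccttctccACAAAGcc
Casc5: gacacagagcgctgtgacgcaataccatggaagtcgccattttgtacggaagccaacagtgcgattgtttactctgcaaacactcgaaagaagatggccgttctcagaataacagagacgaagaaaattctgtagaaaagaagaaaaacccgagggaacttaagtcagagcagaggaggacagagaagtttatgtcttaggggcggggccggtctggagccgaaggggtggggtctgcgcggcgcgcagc
Fxyd1: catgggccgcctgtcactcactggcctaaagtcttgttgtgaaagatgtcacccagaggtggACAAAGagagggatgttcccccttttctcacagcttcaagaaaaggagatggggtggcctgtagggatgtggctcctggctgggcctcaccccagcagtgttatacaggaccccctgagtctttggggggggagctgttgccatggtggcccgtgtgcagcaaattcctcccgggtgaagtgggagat
Hist1h1c held 1 CCAAT match, 54 bases before the TSS, although its SOX9 peak was centred 219 bp after the TSS. The peak of Hist1h4i was centred 237 bp after the TSS, so that for both histone genes most of the bases shown lay outside the peak. Hist1h4i held a TATAAA and an ACAAAG match, Fxyd1 an ACAAAG match that starts 188 bases before the TSS, and Casc5 none of the sequences in capitals. In mm9, the build of the peak lists, the SOX9 peaks of these genes were at chr2:164595033-164595633 (Ube2c), chr2:69043960-69044560 (Spc25), chr6:82724259-82724859 (Hk2), chr19:3575509-3576109 and chr19:3576006-3576606 (Ppp6r3), chr13:23830595-23831195 (Hist1h1c), chr13:22132684-22133284 (Hist1h4i), chr2:118872233-118872833 (Casc5) and chr7:31840652-31841252 (Fxyd1).

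SOX9 peaks near start sites lay mostly upstream of the TSS at non-histone genes and mostly downstream at histone genes. Of the 208 peaks at non-histone genes 149 were upstream of the TSS and 59 (28.4%) downstream, with a median position of -100 bp and quartiles of -263.5 and 82 bp. Of the 31 peaks at replication-dependent histone genes 30 were downstream, with a median of 256 bp and quartiles of 208 and 365.5 bp. The bin from -100 to 0 bp held more peaks than any other of 100 bp, 45 of the 239, none of them at histone genes, and the bin from 200 to 300 bp held 20, of which 13 were at histone genes.

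**Figure D1:**
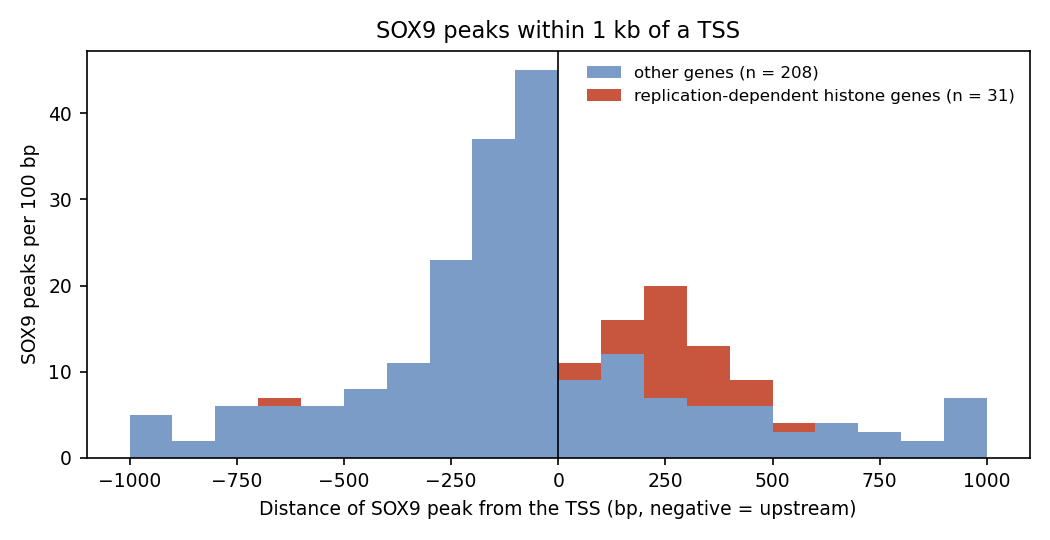
Number of SOX9 peaks per 100 bp (y axis) against the signed distance of the peak from the TSS in bp (x axis), stacked for the 31 peaks at replication-dependent histone genes and the 208 at other genes. The other peaks gather just upstream of the TSS, with 45 between -100 and 0 bp, and 30 of the 31 histone peaks lie downstream.

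Histone genes made up 31 of the 239 peaks, 12.97% (exact 95% interval 8.99 to 17.9%), and 14 of the 2704 SOX9 peaks beyond 1 kb, 0.518% (0.283 to 0.867%). These exact intervals (Clopper-Pearson) and the others given for shares cover counting error only, and neighbouring peaks at 1 gene are not independent. The nearest of the 14 distant histone peaks was 4136 bp away. Of the 31 peaks, 30 were on chromosome 13, which carries the main histone cluster, and 1, at Hist2h3c2, was on chromosome 3. Chromosome 13 held 34 of the 239 peaks in all, and none of the 239 was on X or Y, where the whole list had 68 and 4.

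The core histone H3 genes carried more of these peaks than any other histone class. In the expression table were 12 H3 genes, of which 8 had a peak, and 7 of those had 2, which gave 15 peaks at 37 to 508 bp. Histone H4 followed with 7 of 13 genes and 7 peaks, and H2B with 5 of 19 genes and 6 peaks at 230 to 380 bp. The linker histone H1 had peaks at 2 of 6 genes, Hist1h1c and Hist1h1d (219 and 238 bp), and H2A at 1 of 18, Hist1h2ad (24 bp). The paired peaks at the 8 histone genes that had 2, the 7 H3 genes and Hist1h2bc, were 124 to 336 bp apart. The ChIP reads were 43 bp long, and close copies of histone genes can share such reads. The sources used here do not say how reads with several matches were placed, and the input samples are titled for NFIA only. Counts by histone class, the paired peaks and the NFIA overlaps at histone genes are therefore uncertain, and the part of shared reads was not tested.

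Hist1h4h was the exception among the histone genes. Its only peak within 1 kb, at -658 bp, was upstream, and an NFIA peak with the highest NFIA score at any of the 239 (766, in the authors' unexplained unit) lay 10 bp from its centre. The NFIA peaks at the H3 genes Hist1h3b, Hist1h3d, Hist1h3g, Hist1h3h and Hist1h3i and at the H4 gene Hist1h4a were centred 114 to 394 bp after the TSS and had scores of 14 to 18. The lowest NFIA score at the 239 was 14 and the median of the whole NFIA list was 16.

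**Figure D2:**
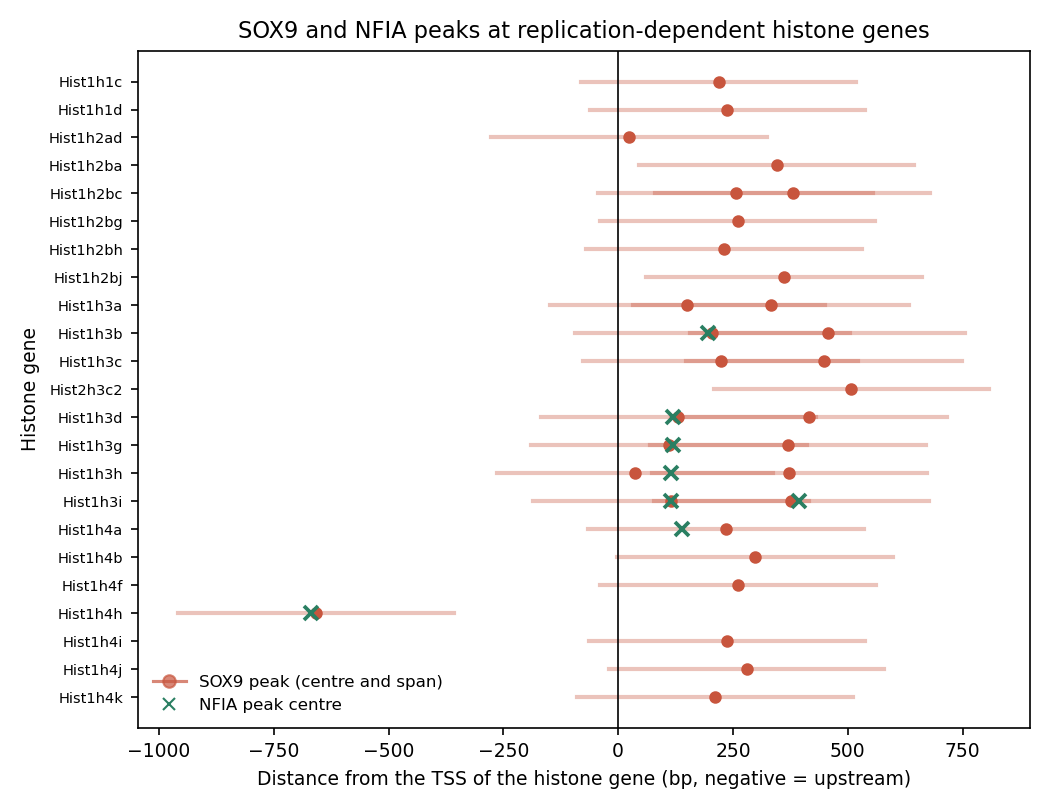
Position relative to the TSS in bp (x axis) of the 31 SOX9 peaks (points for centres, bars for the 601 bp span) and 8 NFIA peak centres (crosses) at the 23 replication-dependent histone genes (y axis). Both factors sit after the TSS at 5 H3 genes and Hist1h4a, and Hist1h4h at -658 bp is the only gene with both upstream.

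Few SOX9 peaks near start sites overlapped a SOX3 peak. Of the 239 peaks 6 (2.51%, 0.927 to 5.38%) shared at least 1 bp with a SOX3 peak, against 312 of the 2704 beyond 1 kb (11.5%, 10.4 to 12.8%), and the exact intervals did not overlap. The SOX3 list itself had only 33 of its 1367 peaks within 1 kb of a TSS. Of these 5 (15.2%) touched a SOX9 peak, against 294 of the 1334 SOX3 peaks beyond 1 kb (22.0%). No histone peak met SOX3, 0 of 31 (exact interval 0 to 11.2%, or up to 9.68% by a limit of 3 counts).

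The 6 peaks lay at 5 genes. They were Ctnna3, an alpha-catenin gene (-575 bp), Acot1, an acyl-CoA thioesterase (-179 bp), Fgd4, an exchange factor for Cdc42 (-99 bp), Ppp6r3, a regulatory subunit of protein phosphatase 6 (-556 bp), and Nacc2, a BTB-domain repressor (137 and -24 bp). Ctnna3 and Ppp6r3 were also the only genes where SOX9, SOX3 and NFIA met, with NFIA centres 0 and 6 bp and SOX3 centres 8 and 18 bp from the SOX9 centre. Acot1, Fgd4, Nacc2 and Nfya below were chosen for naming after their values were seen.

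Overlap with NFIA was less frequent close to the TSS than beyond 1 kb. It covered 35 of 239 peaks (14.6%, 10.4 to 19.8%), against 800 of 2704 beyond 1 kb (29.6%, 27.9 to 31.3%). The share was 1.79% (0.0452 to 9.55%, 1 of 56) within 100 bp, 9.33% (3.84 to 18.3%, 7 of 75) over 100 and up to 250 bp, 25.8% (15.5 to 38.5%, 16 of 62) up to 500 bp and 23.9% (12.6 to 38.8%, 11 of 46) up to 1000 bp. From 1 to 2 kb it was 37.3% (25.04 to 50.9%, 22 of 59). Histone peaks, whose NFIA overlaps are uncertain, are part of these counts. The 1 overlap within 100 bp was at Hist1h3h. Of the 7 over 100 and up to 250 bp, only those at Polr3e and Ap3m2 were not at histone genes. The peaks of 1 list are not replicates of a condition, so these shares were compared by their intervals and not tested.

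Counted by peak, overlap with NFIA was more frequent at histone genes than at the others. The share was 38.7% (21.9 to 57.8%, 12 of 31) for histone peaks, 10 of them at H3 genes, and 11.1% (7.14 to 16.1%, 23 of 208) for the rest. The 12 histone overlaps came from 7 genes and 8 different NFIA peaks, and in 4 of them the second SOX9 peak of a gene met the same NFIA peak with centres 249 to 296 bp apart. The intervals overlapped when each gene was counted once, at 30.4% (13.2 to 52.9%, 7 of 23) and 11.7% (7.55 to 17.0%, 23 of 197), and when centres had to lie within 150 bp, at 25.8% (11.9 to 44.6%, 8 of 31) and 10.6% (6.75 to 15.6%, 22 of 208). Among the rest, 20 of the 23 shared peaks were upstream, and the NFIA centre lay a median of 11 bp from the SOX9 centre, the same median distance as beyond 1 kb, against 48 bp at histone peaks. The NFIA scores had a median of 57 at these peaks, 15 at the histone peaks and 30 at SOX9 peaks beyond 1 kb. After Hist1h4h, the highest scores were at Ilf2 (749), whose product binds double-stranded RNA, and at the zinc finger gene Mynn (137). Neither factor met 200 of the 239 peaks (83.7%), against 60.2% beyond 1 kb.

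**Figure D3:**
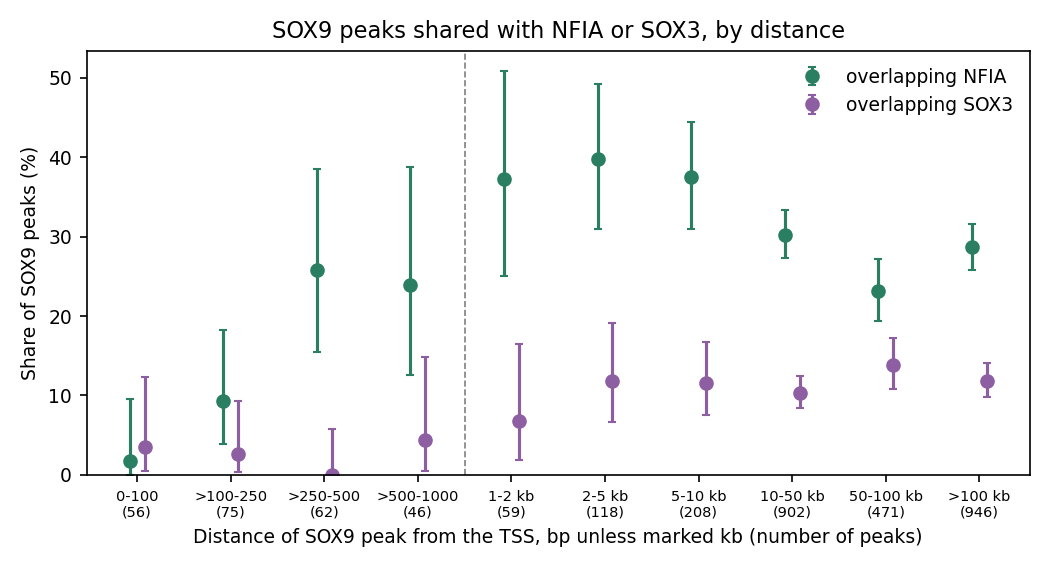
Share of SOX9 peaks in percent (y axis, with exact 95% intervals for counting error) that overlap an NFIA or a SOX3 peak by at least 1 bp, by distance from the TSS (x axis, number of peaks in brackets, dashed line at 1 kb). NFIA overlap is 1.79% within 100 bp and 37.3% from 1 to 2 kb, and SOX3 overlap is at most 4.35% in each bin below 1 kb. Peaks at histone genes are included.

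CCAAT boxes were more frequent in promoters of these genes than in promoters of genes with distant SOX9 peaks. RefSeq windows from 250 bases before to 50 after the TSS were found for 176 of the 220 genes and were searched on both strands for the CCAAT box, the SOX cores ACAAAG and ACAATG, the NFI sequence TTGGC and the TATA sequence TATAAA (a window with ATTGGC matches the CCAAT box and the NFI sequence at once). CCAAT was present in 69.3% of them (61.9 to 76.0%), against 39.0% (38.3 to 39.8%) of 17491 protein-coding promoters and 38.7% (36.2 to 41.3%) of the promoters of 1465 genes that only had SOX9 peaks beyond 1 kb. At least 2 matches were present in 54.5% (46.9 to 62.1%), 13.5% and 13.3%. Windows of different genes are not replicates, so the shares were not tested. A match is a description of letters in a window and not a bound site.

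The CCAAT share varied with the distance of the peak from the TSS. Leaving histone genes out, it was 80.6% (71.8 to 87.5%) in the 108 promoters whose nearest SOX9 peak was centred within 300 bp and 42.6% (28.3 to 57.8%) in the 47 where it was farther. The shares with at least 2 matches were 69.4% and 21.3%. Of the 107 promoters of non-histone genes that held CCAAT, the match nearest to the peak was centred at a median of -102 bp (quartiles -156.5 and -64), and 62 (57.9%) had a match within 50 bp of the peak centre. Windows held up to 8 matches (Arntl), and taking the nearest draws both values towards the peak. No expected share was computed, so whether matches lie closer to peaks than their number and the window would give was not tested. These positions set peak distances from the authors' mm9 start sites beside RefSeq start sites of GRCm38.p6. For 13 of the 13 genes with 2 peaks and a RefSeq window, the strand read from the peak distances was that in RefSeq. This checks the strand only and cannot show whether the 2 sets of start sites lie at the same base.

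The motifs bound by SOX proteins did not follow this pattern. A SOX core was present in 21.6% (15.8 to 28.4%) of the windows, 23.1% of those with only distant SOX9 peaks and 26.0% of all protein-coding promoters. It was present in 11 of the 22 promoters (50%, 28.2 to 71.8%) of genes with a SOX3 peak but no SOX9 peak within 1 kb. TTGGC was present in 65.9% against 48.2% of protein-coding promoters, but where it did not form part of ATTGGC the shares were 33.0% and 37.5%. TATAAA was found in 61.9% of the 21 histone windows and in 7.74% of the other 155, against 13.3% of protein-coding promoters. The median G and C content was 59% for the 176 windows and 56.3% for protein-coding promoters, the ratio of observed to expected CpG 0.78 and 0.58, and 18.2% against 13.2% had another start site on the opposite strand within 1000 bp upstream. The part of G and C content and CpG in the CCAAT shares was not tested.

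**Figure D4:**
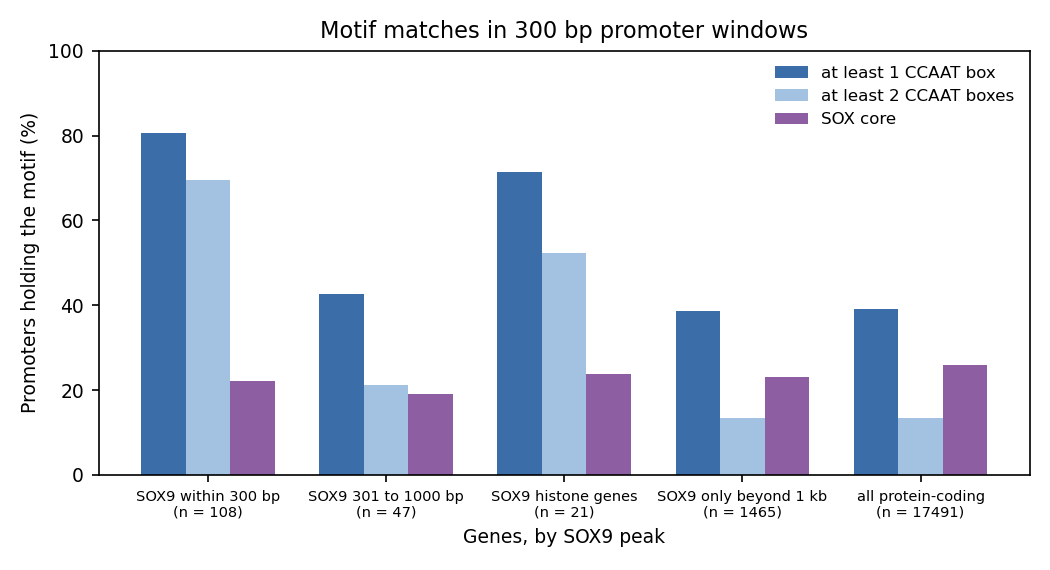
Share of 300 bp RefSeq promoter windows in percent (y axis) that hold at least 1 CCAAT, at least 2 CCAAT or a SOX core, by gene set (x axis, number of windows in brackets). CCAAT reaches 80.6% where the SOX9 peak is centred within 300 bp of the TSS and 39.0% over all protein-coding promoters, and the SOX core stays between 19.1% and 26.0% in the 5 sets.

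Nfya, which encodes the subunit of NF-Y that contacts the CCAAT box, was itself among the 220 genes, with a SOX9 peak at 146 bp. Its levels were 19.2, 18.6, 24.4 and 17.5 RPKM in GPC replicates 1 to 4 against 15.9, 15.3 and 15.7 RPKM in glia. All GPC values were above all glia values, and its log2 change (glia over GPC) was -0.39 ± 0.11 (SE), with an adjusted p of 0.0117 by edgeR's quasi-likelihood test.

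The median level of genes with a SOX9 peak near the TSS was above that of genes with distant peaks. Of the 220 genes 215 were in the expression table, 205 by their symbol and 10 through a synonym, and 5 were not matched. Their median level in GPC was 10.5 RPKM, or 13.6 RPKM without the 23 histone genes, against 5.90 RPKM for genes with only distant SOX9 peaks, 1.19 RPKM for genes with no SOX9 peak and 1.52 RPKM for all genes. At least 1 RPKM in GPC was reached by 76.3% of them, 66.0% of genes with distant peaks and 52.4% of all. The highest levels were those of Calr, a chaperone of the endoplasmic reticulum, the histone variant gene H2afx, the splicing regulator Hnrnpl, Hn1 and Ube2c.

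The change between GPC and glia was close to the background in count. Counts allowed a test for 173 of the 215 genes, of which 6 were histone genes, and 3 of the 215 had no count in any library. Of the 173, 58 rose and 68 fell in glia at an adjusted p below 0.05, together 72.8% (background 70.4% of 13588 genes tested), with 33.5% rising (background 35.2%) and 39.3% falling (background 35.2%). Library values did not overlap between the groups for 123, 71.1% (background 69.5%). Rises of at least 2-fold were 17 of 173, 9.83% (background 16.5%), and falls of at least 2-fold 22, 12.7% (background 9.24%). The median log2 change was -0.10, against 0.05 for genes with only distant peaks and 0.00 for all genes tested. Without GPC replicate 3, 60 rose and 72 fell, 76.3% beside 75.8% of all genes tested, and the median was -0.06. Genes pass the count filter partly through the group in which they are high, so these counts describe tested genes and not all 220. In bulk RNA, fewer cells of a type and less RNA per cell cannot be told apart.

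Falls outnumbered rises among genes with several CCAAT matches. Of 83 tested non-histone genes with at least 2 matches 23 rose and 40 fell (27.7% and 48.2%), with a median log2 change of -0.20. Over 1552 tested protein-coding genes with at least 2 matches, 30.2% rose and 41.6% fell and the median was -0.10. Of 17 with 1 match 7 rose and 3 fell (41.2% and 17.6%, median 0.06), against 34.3% and 36.2% of 2504 protein-coding genes with 1 match. Of 37 with no match 14 rose and 14 fell (37.8% each), against 35.4% and 34.9% of 6376. Nearest peaks upstream of the TSS went with 39 rises and 55 falls among 129 tested genes (30.2% and 42.6%), and downstream ones with 16 and 12 among 38 (42.1% and 31.6%), beside 35.2% rising and 35.2% falling over all genes tested. Of 18 tested genes with an NFIA peak 4 rose and 9 fell (22.2% and 50%, with the same background), and none of the 4 rises reached 2-fold. These splits were not tested against each other.

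Ube2c, Spc25 and Casc5 were among the 8 largest falls. Ube2c, the ubiquitin-conjugating enzyme of the anaphase-promoting complex, gave 231.8, 218.9, 169.3 and 224.7 RPKM in GPC against 46.1, 42.1 and 44.7 RPKM in glia, a log2 change of -2.27 ± 0.11. Spc25, a subunit of the Ndc80 kinetochore complex, gave 67.3, 69.1, 55.8 and 66.8 RPKM in GPC against 14.8, 19.02 and 15.0 RPKM in glia (-2.03 ± 0.11). Casc5 (Knl1), the kinetochore scaffold, gave 7.78, 8.56, 6.54 and 8.33 RPKM and then 2.02, 2.63 and 1.501 RPKM (-1.998 ± 0.17). In each of the 3 genes every GPC library was above every glia library. Their SOX9 peaks lay at -65, -45 and -323 bp, and that of Casc5 coincided with an NFIA peak.

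H2afx, a histone variant that is phosphorylated at DNA breaks, fell as well. Its levels were 273.6, 255.3, 317.5 and 258.7 RPKM in GPC against 77.5, 64.9 and 86.2 RPKM in glia (-1.88 ± 0.12). Its peak lay at -269 bp. Fam72a, with 6 CCAAT matches and a peak at -73 bp, gave 5.77, 7.53, 4.38 and 6.77 RPKM in GPC against 1.37, 1.55 and 1.38 RPKM in glia (-2.11 ± 0.21). No value in GPC of either gene reached down to the glia range.

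Egr2 and Hk2 rested on 1 library for part of their size. Egr2, an immediate early zinc finger factor with a peak at 919 bp, gave 2.27, 2.32, 7.56 and 2.68 RPKM in GPC against 0.530, 0.342 and 0.407 RPKM in glia, a log2 change of -3.13 ± 0.60 and of -2.46 without GPC replicate 3. Hk2, a hexokinase of glycolysis with a peak at -111 bp, gave 6.12, 6.73, 22.2 and 6.67 RPKM in GPC against 1.85, 2.01 and 1.58 RPKM in glia, a log2 change of -2.59 ± 0.58 and of -1.89 without that library. GPC replicate 3 was the high library in both, and the other 3 were still above all glia values. Dcpp2, a secreted protein of glands with close relatives that could take some of its reads, had 11 to 23 reads per GPC library and 3, 1 and 0 in glia (-3.46 ± 0.57, or -4.52 without glia replicate 1 and -2.74 without glia replicate 3).

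Fxyd1, Reln and Frem2 were among the 8 largest rises. Fxyd1 (phospholemman), a regulator of the sodium pump with a peak at -276 bp, gave 0.256, 0.410, 1.43 and 0.890 RPKM in GPC against 51.4, 43.8 and 56.6 RPKM in glia, a log2 change of 5.66 ± 0.29 (6.35 without GPC replicate 3). Reln, the secreted protein reelin, with a peak at 262 bp, gave 2.42, 2.52, 0.890 and 2.27 RPKM in GPC against 14.05, 16.2 and 13.8 RPKM in glia (2.85 ± 0.31). Frem2, an extracellular matrix protein with a peak at -94 bp, gave 0.544, 0.738, 0.834 and 0.647 RPKM and then 5.33, 7.58 and 5.69 RPKM (3.10 ± 0.16). For these 3 genes the groups were apart, and the levels of Fxyd1 in glia were the highest of the 7 rising genes named. Fxyd1 had 2, 3, 19 and 7 reads in the GPC libraries and 457, 155 and 498 in glia. The size of its rise therefore rests on few GPC reads.

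Syt1, the calcium sensor of synaptic vesicles, was the only 1 of the 8 listed neuron markers with a SOX9 peak near its TSS (-58 bp). It gave 0.360, 0.567, 0.459 and 0.531 RPKM in GPC against 4.78, 5.24 and 4.36 RPKM in glia (3.28 ± 0.15). Of the 7 neuron markers measured 5 rose and none fell, and the part of neurons in the culture was not tested. Nefl, the light chain of neurofilaments, is not on that list and was named after its values were seen, with a peak at 200 bp and a rise of 0.75 ± 0.17 (edgeR adjusted p = 0.00312).

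The remaining rises named also started from few reads. Trim29, a tripartite motif protein, had 1, 1, 16 and 0 reads in GPC and 84, 32 and 104 in glia, a log2 change of 4.14 ± 0.54 that was 6.42 without GPC replicate 3. Tmem179 had 12, 12, 52 and 11 reads and then 202, 69 and 221 (3.06 ± 0.30, or 3.67 without GPC replicate 3). In RPKM, which takes account of depth, every glia library was above every GPC library in both genes. Kcnj12, an inward rectifier potassium channel, had 0.209 ± 0.0992 RPKM in GPC and 1.61 ± 0.732 RPKM in glia (SD, n = 4 and 3), a rise of 2.87 ± 0.40 on the log2 scale. Each of the 7 rises and 8 falls named for size had a Benjamini-Hochberg adjusted p of at most 0.00514 over 13588 genes (edgeR's quasi-likelihood test).

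**Figure D5:**
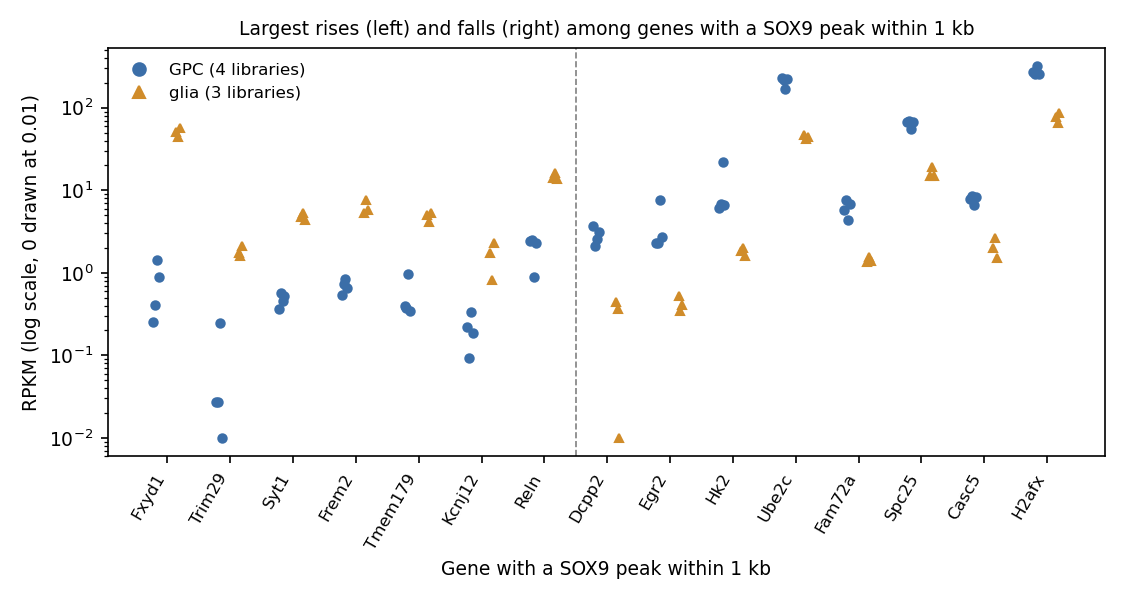
RPKM per library (y axis, log scale, with a value of 0 drawn at 0.01) of 7 of the genes with the largest rises and the 8 with the largest falls (x axis) among non-histone genes with a SOX9 peak within 1 kb, in 4 GPC (circles) and 3 glia libraries (triangles). The groups are apart in all 15 genes, and GPC replicate 3 is the high GPC library of Egr2 (7.56 RPKM) and Hk2 (22.2 RPKM).

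Calr, Hnrnpl and Hn1, which with H2afx and Ube2c were the 5 most abundant of the genes, were lower in glia too. Calr gave 491, 488, 508 and 499 RPKM in GPC against 359, 335 and 365 RPKM in glia (-0.52 ± 0.06, adjusted p = 4.1e-05 by edgeR). Hnrnpl gave 239, 237, 267 and 239.6 RPKM and then 162, 161 and 172 RPKM (-0.60 ± 0.07, adjusted p = 2.9e-05), and Hn1 fell from 222 ± 5.38 to 106 ± 8.83 RPKM (SD, n = 4 and 3; log2 change -1.10 ± 0.07, adjusted p = 4.8e-07, edgeR). The GPC and glia values of the 3 genes did not overlap. Hnrnpl was the only 1 of 132 splicing and RNA-binding genes in the list used, and H2afx the only 1 of 12 histone variant genes, with a SOX9 peak this close. Over all genes in the expression table it was 215 of 22958.

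Genes where SOX9 met a second factor moved in both directions. Of the SOX3 genes, Nacc2 gave 20.0, 18.1, 20.2 and 17.7 RPKM in GPC against 53.3, 55.9 and 52.2 RPKM in glia (1.46 ± 0.07, edgeR adjusted p = 5.3e-08), and Fgd4 rose from 4.41 ± 0.494 to 8.89 ± 1.42 RPKM (SD, n = 4 and 3; 1.08 ± 0.12, edgeR adjusted p = 2.7e-05). Acot1, whose family has close copies, was at 150.02 ± 6.69 and 140.4 ± 3.27 RPKM, its groups overlapped and it was not called (-0.13 ± 0.06, edgeR adjusted p = 0.0999). Ctnna3 had 1 to 12 reads in GPC and 4 to 17 in glia and was not tested.

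Ppp6r3, the other gene with all 3 factors, gave 55.9, 57.3, 51.0 and 59.2 RPKM in GPC against 38.9, 42.0 and 37.3 RPKM in glia (-0.55 ± 0.07, edgeR adjusted p = 5.1e-05). Its groups did not overlap. At the highest NFIA scores, Ilf2 fell from 120.1 ± 7.59 to 93.97 ± 1.60 RPKM (SD, n = 4 and 3; -0.39 ± 0.07, edgeR adjusted p = 0.00055). Mynn was higher in glia by 0.25 ± 0.09 (edgeR adjusted p = 0.0277), a call that was lost when replicate 1 (0.0787) or 2 (0.0806) of GPC or replicate 1 (0.108) or 2 (0.0740) of glia was left out. Hist1h4h had at most 9 reads in any library and was not tested.

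Transcripts of the 3 factors differed between the groups too. Sox9 gave 53.5, 53.9, 62.7 and 52.5 RPKM across GPC and 76.4, 75.2 and 75.8 across glia (0.41 ± 0.08), while Nfia rose by 0.89 ± 0.15 and Sox3 fell by 1.09 ± 0.26 on the log2 scale. Their edgeR adjusted p-values were 0.00069, 0.000637 and 0.00638.

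Messages of the histone genes under SOX9 peaks were scarce in these libraries. The 23 genes together took 55.1 to 62.6 CPM (counts scaled to library size) in GPC and 47.8 to 61.4 in glia, and 15 to 19 of them had at most 5 reads in a given library. The messages of such genes mostly lack a poly(A) tail, and the sources used here do not say how RNA was selected. Close copies of these genes can also share reads, so the values that follow are uncertain. Counts allowed a test for 6 of the 23, of which 3 rose and 1 fell, 66.7% called (background 70.4%), with a median log2 change of 0.19. Of the 5 matched by their own symbol 2 rose and 1 fell.

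Hist1h1c, a linker histone gene, had the most reads of the 6 and gave 28.4, 30.6, 26.7 and 28.3 RPKM in GPC against 20.1, 17.9 and 23.7 RPKM in glia (-0.49 ± 0.10, edgeR adjusted p = 0.00169). Hist1h2bc, an H2B gene, moved the other way, from 28.0, 32.3, 26.1 and 31.5 RPKM to 44.8, 39.5 and 49.4 RPKM (0.59 ± 0.12, edgeR adjusted p = 0.00128). In neither gene did the groups overlap. Hist2h3c2 was read through the table symbol Hist2h3c2-ps, which RefSeq lists as a synonym of the same gene, and whether the authors' annotation held 1 locus or separate ones was not tested. The row under that symbol rose by 2.72 ± 0.48 (3.68 without GPC replicate 3) from 0 to 9 reads in GPC to 10 to 26 in glia (edgeR adjusted p = 0.00053).

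Hist1h2bg had 3 to 18 reads in GPC and 8 to 23 in glia, with a log2 change of 1.14 ± 0.39 (edgeR adjusted p = 0.0220). Its call was lost without GPC replicate 1 (0.0515), without glia replicate 3 (0.0967) and with DESeq2 (0.0525). Hist1h1d (-0.59 ± 0.34, edgeR adjusted p = 0.148) and Hist1h4i (-0.21 ± 0.26, edgeR adjusted p = 0.488) did not pass, and their groups overlapped.

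Other gene lists had few or no members among the 220. Over all genes, 215 of the 22958 in the expression table had a SOX9 peak this close, so most lists of such sizes would hold few members or none. The counts, with those for Syt1, Hnrnpl and H2afx above, are descriptions and not results about the lists. The lists hold chosen genes or symbols of a set form and are not complete, so that members with a like function, such as the zinc finger genes Egr2 and Mynn, can stand outside them. Egr2 was the only 1 of 37 growth factor feedback and immediate early genes and Sox18, not tested at 0 to 0.467 RPKM, the only 1 of 23 SOX and NFI genes with a SOX9 peak within 1 kb. No member was found among the listed 40 cell cycle genes, 23 neural progenitor genes, 21 Notch pathway genes, 46 chromatin regulators, 95 ribosomal protein genes, 420 genes with zinc finger symbols, 724 small noncoding RNA genes, 10 astrocyte markers, 7 oligodendrocyte precursor markers or 8 maturing oligodendrocyte markers. The same held for 6 microglia, 5 endothelium, 6 mesenchyme and 5 pluripotency markers. Ube2c, Spc25 and Casc5 were not on the cell cycle list and are named for the size of their change.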

How the data were processed

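ChIP-seq peak lists of SOX9 (3 samples), SOX3 (2) and NFIA (2) in GPC and a table of 4 GPC and 3 glia RNA libraries were used, out of 19 labelled samples. The 2 input and 3 H3K27Ac samples were not analysed here. Groups came from the sample titles. The members and gene lists were chosen with earlier results of these data known.

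Peaks were called by the authors as 1 list per factor on build mm9, with MACS and MACS2 named per the submitters' processing notes. In the SOX9 and SOX3 lists the authors added the assigned gene and the signed distance from its TSS, and the sources used here do not say how. The deposited NFIA score has no stated meaning. Whole-number read counts per gene were deposited by the authors, and their RPKM values were scaled by gene length and library reads, per the file headers. The sources used here name no aligner or counter and do not say whether strand was used, so overlapping and antisense genes cannot be told apart.

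Peaks overlapped when they shared at least 1 bp, and positions are 1-based. Shares carry exact Clopper-Pearson 95% intervals, and a count of 0 was given a limit of 3 counts. The test of counts was edgeR 4.0.16 under R 4.3.3 (TMM, filterByExpr, robust quasi-likelihood fits, two-sided, Benjamini-Hochberg adjusted over 13588 genes, called below 0.05), without a replicate block. The common biological coefficient of variation was 0.108. The procedure was first tested on simulated data. Other settings were RLE scaling, no count filter, a minimum of 50 counts in 3 libraries, DESeq2 1.42.0, a replicate block, each library left out, distance limits of 500 and 2000 bp and stricter overlaps. Symbols were matched directly or through RefSeq synonyms, and overlaps, shares and figures were computed in Python 3.11.15.

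Genes named were Sox3, Sox9 and Nfia, the 8 largest called rises and 8 largest called falls without overlap between groups (histone genes apart), genes with peaks of all 3 factors, the 5 most abundant, the histone genes with the largest changes (4) or most counts (3), up to 4 members of each other list, the 3 peaks on each side of the limit and the 3 highest NFIA scores. Of the 8 rises 1 is not reported here.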

Additional observations from a re-analysis of the deposited data

Results flagged for a closer look

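In 10 of 37 sets of 4 GPC values that were examined, 1 library stood apart from the other 3 by a gap, as a share of the whole range, above Dixon's 95% critical value, which chance gives in about 1 in 20 sets. In 9 of the 10 that library was GPC replicate 3. The gap in RPKM was 0.962 of the range for Hk2 and 0.922 for Egr2, where GPC replicate 3 was highest. It was 0.917 for Tmem179, 0.901 for Hnrnpl and 0.887 for Trim29, also with GPC replicate 3 highest, and 0.844 for Reln, where the same library was lowest. Sox3 (0.897), Nfia (0.864) and Sox9 (0.856) were highest in GPC replicate 3 too. GPC replicate 4 was apart for Hist1h4i (0.904). The labels give no batch for any library.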

How the results depend on the processing

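The number of called genes with a SOX9 peak within 1 kb, 126, stayed within 1.5 times under every alternative, from 105 at a distance limit of 500 bp to 156 at 2000 bp, with 110 without glia replicate 1 and 132 without GPC replicate 3 as the ends when single libraries were left out. The median log2 change of -0.10 over the tested genes was set against a yardstick of 0.011. This was the SD over libraries of the median deviation of these genes' log CPM from the group mean, not a spread of the median change itself. The median moved by more than that with no count filter (-0.0605) and with at least 50 counts in 3 libraries (-0.0773). It also did so at distance limits of 500 bp (-0.120) and 2000 bp (-0.0610). With single libraries left out it ran from -0.102 to -0.0616. The CCAAT share of 69.3% became 80.6% where the nearest peak was within 300 bp and 42.6% where it was farther, a split chosen after seeing the data. With replicates 1 to 3 of each group, 117 genes were called with a replicate block and 118 without, and same-numbered libraries deviated together at correlations of -0.02, 0.138 and 0.068, so the numbers were not taken to pair them. Besides Mynn, whose adjusted p was 0.0646 with the block (edgeR), no call of a named gene was lost under the block. Of 435 values of 34 named genes under the alternatives, 427 kept direction and call and the other 8 lost the call, all at Mynn or Hist1h2bg. Shares of overlap and of histone peaks moved by less than their intervals in the alternatives run. For NFIA overlap at histone and other genes separately, the counts by gene and by centre distance were chosen after seeing the data. The merged peak lists give no spread between ChIP samples, and 17 of the 23 histone genes had too few reads to test.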
